A study of Mus musculus with 3 samples.

Results

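The genes described here encode the T cell receptor complex and its coreceptors, measured in 3 sorted populations of mouse mononuclear phagocytes, none of which is a T cell. They were chosen by name as Cd3d, Cd3e, Cd3g, Cd4, Cd8a, Cd8b1, Cd2, Lck, Lat and Thy1, and 9 of these 10 had a listed probe, 32 probes in all, among 19087 genes measured. Lck had no listed probe and was not analysed here. The sample labels name alveolar macrophages, dendritic cells and peripheral blood monocytes of male and female mice aged 6 to 9 weeks, and by the methods the mice were untreated wild-type C57BL/6N. Lung macrophages (lung Mϕ) and lung dendritic cells (lung DC) were sorted from whole digested lung as CD11c-positive cells of high and of low autofluorescence, and peripheral blood monocytes (PBMo) as low side scatter cells positive for CD11b and CD115. All 3 cell types came from each mouse, RNA of 32 mice was pooled from 4 mice at a time into 8 pools per cell type, and 12 two-colour arrays compared the cell types, 4 per comparison with the dyes balanced.

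A T cell recognises peptide on MHC molecules through the T cell receptor, whose antigen-binding chains carry no signalling tail of their own. The CD3 chains and the ζ chain (Cd247) supply these tails, the coreceptors CD4 and CD8 bind MHC class II and class I and bring the kinase Lck to the receptor, and the kinase Zap70 and the scaffold Lat pass the signal on. Several of these genes are not restricted to T cells, since CD8α and CD4 are found on subsets of dendritic cells, and NK cells and other innate lymphoid cells transcribe CD3 chains, Cd2, Thy1, Lck and Lat in part.

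The deposited data are 1 log2 ratio per spot for each of lung Mϕ over PBMo, lung DC over PBMo and lung Mϕ over lung DC, so a gene has a positive value where the first cell type had more of it, and a log2 ratio of 1 is 2-fold. The third column was the first minus the second to within 1.07e-14 over all spots. The spots are named through an order of the table's rows that was inferred from the values, and all gene names rest on it. The columns hold no value of a single pool or array, and no test and no error between mice could be computed. Genes are called higher or lower when the mean of their probes was above 1 or below -1, a description with no false-discovery rate. The only spread that the data give is that between spots, and its median SD over the 217 transcripts read by 8 or more probes was 0.050 in each comparison with PBMo and 0.0566 in lung Mϕ over lung DC. Ratios do not hold levels, so a ratio near 0 can belong to a gene that is equal in 2 populations or to one near background in both. Marker lists for the 3 populations were written with earlier results of these data known, and are no check of the labels. All 9 measured macrophage markers were higher in lung Mϕ relative to PBMo and all 8 monocyte markers lower, beside 5.47% and 4.49% of all genes. In lung DC over PBMo, 10 of 17 markers of dendritic cells were above 2-fold with none below, beside 4.02% and 1.09% of all genes. Of the macrophage markers, 7 of 9 were also higher in lung DC relative to PBMo, with a median of 3.16. Itgax, which encodes the CD11c used for sorting, had a mean log2 ratio over PBMo of 1.71 in lung Mϕ and of 1.47 in lung DC. Its 2 probes differed widely, at 0.93 and 2.48 in lung Mϕ and at 0.78 and 2.16 in lung DC. Itgam, which encodes the CD11b used to sort PBMo, had -2.46 in lung Mϕ and -0.67 in lung DC.

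Most genes of the complex were higher in lung DC relative to PBMo, and most were lower in lung Mϕ relative to lung DC. Between lung Mϕ and PBMo most lay within 2-fold, as most of all genes did, with Cd3d at -0.89 and Thy1 at -0.82 among them. In lung DC over PBMo, 7 of the 9 measured genes were past 2-fold higher and none was lower, where 5.11% of all genes were past 2-fold and 4.02% were higher. The 7 were Cd3d, Cd3g, Cd8a, Cd8b1, Lat, Cd2 and Thy1, and Cd3e and Cd4 lay within 2-fold in all 3 comparisons, as 87.1% of all genes did. In lung Mϕ over lung DC, 6 of 9 were lower and 1 was higher, beside 4.52% and 2.74% of all genes and 7.26% in either direction. In lung Mϕ over PBMo, Cd2 was higher and Cd8b1 lower, 1 gene each beside 5.47% and 4.49% of all genes and 9.96% in either direction, and the other 7 lay within 2-fold. The median log2 ratio of the 9 genes was 1.54 in lung DC over PBMo, -1.64 in lung Mϕ over lung DC and -0.10 in lung Mϕ over PBMo, and the medians over all genes were at or below 0.00269 in size. The comparisons share their arrays and cell types, so these counts are not independent of each other. RNA was taken from whole sorted populations, in which fewer cells of a type and less RNA per cell cannot be told apart.

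**Figure D1:**
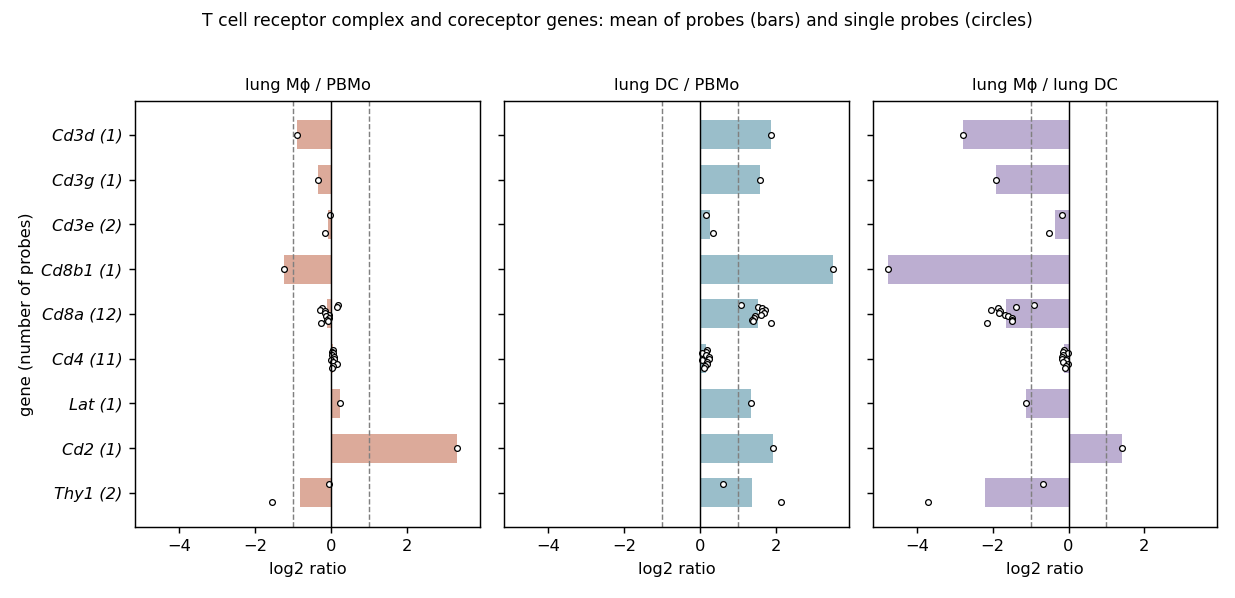
Log2 ratios (horizontal axes) of the 9 measured genes in lung Mϕ over PBMo, lung DC over PBMo and lung Mϕ over lung DC. Bars are means over probes, circles are single probes, the number of probes is in parentheses, and dashed lines mark 2-fold. In lung DC over PBMo the bars of 7 genes pass 1, with Cd8b1 at 3.51, and in lung Mϕ over lung DC every bar but that of Cd2 lies below 0.

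The 3 CD3 genes, whose products pair as the CD3δε and CD3γε dimers of the receptor, did not have the same ratios. Cd3d, the δ chain, had a log2 ratio of 1.88 in lung DC over PBMo, -2.77 in lung Mϕ over lung DC and -0.89 in lung Mϕ over PBMo, so that its level was 3.69-fold that of PBMo in lung DC, and lung DC had 6.84-fold the level of lung Mϕ. Cd3g, the γ chain, had 1.58 in lung DC over PBMo, -1.92 in lung Mϕ over lung DC and -0.34 in lung Mϕ over PBMo. Cd3d and Cd3g thus had the order lung DC, PBMo, lung Mϕ, and only the step between lung DC and the other cell types was past 2-fold. Cd3e, the ε chain that takes part in both dimers, had 0.26 in lung DC over PBMo, -0.35 in lung Mϕ over lung DC and -0.09 in lung Mϕ over PBMo. Its 2 probes lay on the same side of 0 in each comparison, at 0.35 and 0.16 in lung DC over PBMo, at -0.51 and -0.18 in lung Mϕ over lung DC and at -0.16 and -0.02 in lung Mϕ over PBMo. The larger ratio in each pair came from the probe of NM_007648 and the smaller from that of BC028636. Cd3d and Cd3g rest on 1 probe each.

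The 3 CD3 genes are neighbours on chromosome 9, with no other protein-coding gene of the RefSeq table between them. Their promoter windows are shown because Cd3d and Cd3g, which face away from each other, were both past 2-fold higher in lung DC relative to PBMo, whereas the next gene, Cd3e, was within 2-fold. The start sites of Cd3d and Cd3g lie 1355 bases apart, and those of Cd3e and Cd3d 27825. The windows are RefSeq sequences of GRCm38.p6, from 250 bases before to 50 bases after the start site, written 5′ to 3′ in the direction of the gene. Capitals mark AGGAAG, a core of the motif bound by ETS factors, on either strand, so that its reverse complement CTTCCT also appears in capitals. TGTGGT, a core of the motif bound by RUNX factors, was searched on both strands in the same way.
Cd3d, chr9:44981536-44981835, plus strand: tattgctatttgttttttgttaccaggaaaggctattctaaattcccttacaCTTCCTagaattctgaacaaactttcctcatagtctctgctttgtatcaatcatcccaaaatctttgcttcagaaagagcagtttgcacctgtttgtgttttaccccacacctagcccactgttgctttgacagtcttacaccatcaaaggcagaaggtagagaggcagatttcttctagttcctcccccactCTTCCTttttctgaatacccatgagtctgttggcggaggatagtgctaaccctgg
Cd3g, chr9:44980382-44980681, minus strand: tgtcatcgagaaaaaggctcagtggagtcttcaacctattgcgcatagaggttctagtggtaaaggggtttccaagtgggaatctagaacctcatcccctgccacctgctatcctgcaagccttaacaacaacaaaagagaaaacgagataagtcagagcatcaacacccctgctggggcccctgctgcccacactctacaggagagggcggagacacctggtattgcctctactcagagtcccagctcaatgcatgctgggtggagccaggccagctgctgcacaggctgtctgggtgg
Cd3e, chr9:45009562-45009861, minus strand: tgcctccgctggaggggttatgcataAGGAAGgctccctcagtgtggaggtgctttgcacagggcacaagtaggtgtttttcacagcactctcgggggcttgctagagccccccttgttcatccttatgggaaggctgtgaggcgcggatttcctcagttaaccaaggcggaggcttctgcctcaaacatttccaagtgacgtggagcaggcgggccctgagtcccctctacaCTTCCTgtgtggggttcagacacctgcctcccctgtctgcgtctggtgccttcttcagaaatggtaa
AGGAAG occurred 2 times in the window of Cd3d and 2 times in that of Cd3e, and in 35.4% of all 32851 promoter windows. It did not occur in the window of Cd3g. TGTGGT, which 16.8% of all windows hold, occurred in none of the 3. CANNTG, the E-box letters that E proteins of lymphocytes bind, occurred 4 times in the window of Cd3g, 2 times in that of Cd3e and 1 time in that of Cd3d, and 72.3% of all windows hold it. TATAAA, the TATA box letters, also searched on both strands, was in none of the 3 and in 13.6% of all windows. Cd3e, within 2-fold, and Cd3d, past it, had the same number of AGGAAG matches, and the part of any motif in the ratios was not tested. A match is a run of letters and no bound site.

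The coreceptor genes included the gene with the largest ratio of the set in lung DC over PBMo, Cd8b1, and the gene with the smallest in all 3 comparisons, Cd4. Cd8b1, the β chain in the CD8 heterodimer of conventional cytotoxic T cells, had a log2 ratio of 3.51 in lung DC over PBMo, which is 11.4-fold, and -4.75 in lung Mϕ over lung DC, which is 26.9-fold lower. It was also lower in lung Mϕ relative to PBMo, at -1.24. Among the 19087 genes it held rank 41 from the highest in lung DC over PBMo and rank 3 from the lowest in lung Mϕ over lung DC. All 3 steps of its order, lung DC over PBMo over lung Mϕ, were past 2-fold, a pattern of 46 genes or 0.241% of those measured, and of no other gene of the set. The value rests on 1 probe.

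Cd8a, the α chain, which also forms the homodimer found on lymphoid-type dendritic cells, had smaller ratios than Cd8b1 over 12 probes. Its mean log2 ratio was 1.54 in lung DC over PBMo, with probes between 1.09 and 1.89, and -1.64 in lung Mϕ over lung DC, with probes between -2.14 and -0.91. The mean in lung Mϕ over PBMo was -0.10 and the probes, between -0.30 and 0.18, lay on both sides of 0. The 10 probes of the transcript AK088414 gave 1.55 ± 0.126 in lung DC over PBMo and -1.67 ± 0.211 in lung Mϕ over lung DC (mean ± SD between spots). The probe of AK088128 had the smallest ratios, 1.09 and -0.91, and that of BC030679 the largest, 1.89 and -2.14. All 12 probes, 10 of them of AK088414, were thus past 2-fold higher in lung DC relative to PBMo. All but that of AK088128 were past 2-fold lower in lung Mϕ relative to lung DC. Cd8a and Cd8b1 are neighbours on chromosome 6. The promoter window of Cd8a, shown as the only one of the coreceptor genes in the RefSeq table, held the E-box letters 3 times and none of the ETS, RUNX and TATA letters, so that it has no capitals.
Cd8a, chr6:71373177-71373476, plus strand: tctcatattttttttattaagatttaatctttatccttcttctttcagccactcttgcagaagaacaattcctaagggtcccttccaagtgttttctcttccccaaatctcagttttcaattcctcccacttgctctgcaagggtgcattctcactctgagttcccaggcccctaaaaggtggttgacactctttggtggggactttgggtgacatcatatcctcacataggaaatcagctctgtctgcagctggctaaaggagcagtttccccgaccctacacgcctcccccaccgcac
Its number of E-box matches lay between those of Cd3g and Cd3e.

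Cd4, the coreceptor for MHC class II, which is carried by helper T cells and by some dendritic cells, was read by 11 probes of the same transcript and stayed close to 0 in all 3 comparisons. Its mean log2 ratio was 0.16 ± 0.0651 in lung DC over PBMo, -0.11 ± 0.0566 in lung Mϕ over lung DC and 0.05 ± 0.0440 in lung Mϕ over PBMo (SD between spots, n = 11 probes). All 11 probes were above 0 in lung DC over PBMo, from 0.05 to 0.25, and all were below 0 in lung Mϕ over lung DC, from -0.18 to -0.02. They ran from -0.02 to 0.16 in lung Mϕ over PBMo. In lung DC over PBMo the probes of Cd4 and Cd8a did not overlap, since the highest of Cd4 stood at 0.25 and the lowest of Cd8a at 1.09. These spots share their pools and arrays, so their spread holds nothing on the spread between mice. Whether probes of the same transcript differ in sequence was not examined here, and they may be repeat spots.

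Lat, the membrane scaffold that Zap70 phosphorylates and that platelets, mast cells and NK cells also use, had a log2 ratio of 1.36 in lung DC over PBMo, -1.13 in lung Mϕ over lung DC and 0.23 in lung Mϕ over PBMo. Its level was 2.57-fold that of PBMo in lung DC. Lat, Cd3d, Cd3g, Cd8a and Thy1 shared the pattern of a level past 2-fold higher in lung DC than in both other populations and within 2-fold between those, which 180 genes, 0.943% of all, had. Of 22 NK cell markers, 10 were past 2-fold upwards in lung DC over PBMo and none downwards, beside 4.02% and 1.09% of all genes. Their median was 0.94. Of 10 platelet markers, 5 were lower in lung DC relative to PBMo and none was higher, beside 1.09% and 4.02% of all genes, with a median of -1.06. Of 7 mast cell and basophil markers, 1 was higher in lung DC relative to PBMo and none lower, beside 4.02% and 1.09% of all genes. The median was -0.08, and the 1 was the growth factor receptor Kit, at 2.09. The part of these cell types in the ratio of Lat was not tested.

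Cd2, an adhesion receptor of T and NK cells that binds CD48 in the mouse, was highest in lung Mϕ, where the other measured genes were highest in lung DC. Its log2 ratio was 3.33 in lung Mϕ over PBMo, 1.93 in lung DC over PBMo and 1.40 in lung Mϕ over lung DC. Lung Mϕ thus had 10.05-fold the level of PBMo and 2.64-fold that of lung DC, and lung DC 3.80-fold that of PBMo. Its rank from the highest was 78 of 19087 genes in lung Mϕ over PBMo. The order lung Mϕ, lung DC, PBMo with every step past 2-fold was that of 130 genes, 0.681% of all, and of no other gene of the set. The value comes from 1 probe.

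Thy1, the glycolipid-anchored CD90 of T cells, innate lymphoid cells, fibroblasts and neurons, had means of 1.37 in lung DC over PBMo, -2.19 in lung Mϕ over lung DC and -0.82 in lung Mϕ over PBMo. Its 2 probes carry the same accession, NM_009382, and differed widely. One had 2.13, -3.70 and -1.57 in these comparisons, and the other 0.61, -0.68 and -0.07. Both had the same signs, yet only the probe with the larger ratios was past 2-fold, and the calls of Thy1 rest on it. A count only where every probe was past 2-fold was chosen after seeing the data. It gave 6 genes higher in lung DC relative to PBMo, without Thy1. In lung Mϕ relative to lung DC it gave 4 lower, without Thy1 and Cd8a. The 5 measured genes with 1 probe meet this rule wherever they pass 2-fold. The share of all genes under the rule was not computed, so these counts have nothing to be set beside.

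The few antigen-binding chain genes with a probe and their ζ partner lay within 2-fold in all 3 comparisons as means over probes. So did 87.1% of all genes. Tcra, the α chain and the only antigen-binding chain gene on the list with a probe, had -0.02 in lung DC over PBMo, 0.06 in lung Mϕ over lung DC and 0.04 in lung Mϕ over PBMo. The 7 variable segments of the α and γ loci with a named probe, gathered after the files were seen, ran from -0.08 to 0.34 in lung DC over PBMo, from -0.36 to -0.00367 in lung Mϕ over lung DC and from -0.18 to 0.00907 in lung Mϕ over PBMo. Trav14n-1, at 0.34 in lung DC over PBMo, was the highest of them. Cd247, the ζ chain, had 0.36 in lung DC over PBMo, -0.67 in lung Mϕ over lung DC and -0.31 in lung Mϕ over PBMo, but its 4 probes disagreed, from -0.05 to 1.05 in lung DC over PBMo and from -2.14 to 0.24 in lung Mϕ over lung DC. Trat1, an adaptor that sits in the receptor complex, had 0.14 in lung DC over PBMo. A probe of 1 variable segment reads few of the receptors that a mixture of T cells would carry.

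Of 26 measured genes that act downstream of the receptor, 2 were past 2-fold higher in lung DC relative to PBMo with none lower and a median of 0.10, beside the 4.02% of all genes that were higher. The 2 were Skap1, an adaptor that links the receptor to integrins, at 1.46, and Zap70, the kinase that binds the phosphorylated CD3 and ζ tails, at 1.39. Of the same 26, 7 were lower and 1 was higher in lung Mϕ over lung DC, beside 4.52% and 2.74% of all genes, with a median of -0.62. The lowest was Ptpn22, a phosphatase that restrains Lck and is found in many leukocytes, at -3.75, followed by Skap1 at -3.02, Txk, a kinase of T and NK cells, at -2.62, and Zap70 and the adaptor Fyb, both at -2.49. A further comparison, lung Mϕ over PBMo, had 8 lower and 1 higher, beside 4.49% and 5.47% of all genes, with a median of -0.63. Ptpn22 had -4.02 in lung Mϕ over PBMo and -0.26 in lung DC over PBMo. Fyb, an adaptor of T cells and myeloid cells, had -3.26 in lung Mϕ over PBMo with its 3 probes between -5.29 and -0.68, and Nck1, an adaptor of the cytoskeleton in most cells, was the 1 that was higher, at 1.58, as it was in lung Mϕ over lung DC at 1.26. The genes lower in lung Mϕ relative to PBMo thus included ones that T cells share with other leukocytes, among them Ptprc, the pan-leukocyte CD45, at -1.16. Fyn, the Src family kinase nearest in role to Lck, had 0.34 in lung DC over PBMo and -1.08 in lung Mϕ over lung DC.

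**Figure D2:**
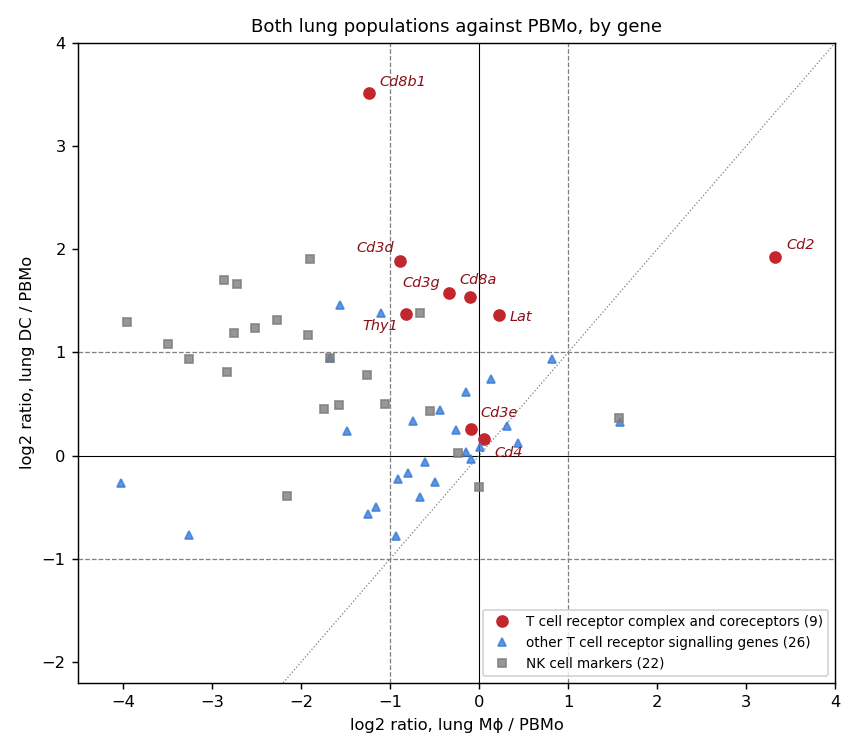
Log2 ratio of lung Mϕ over PBMo (horizontal axis) against that of lung DC over PBMo (vertical axis) for 9 genes of the receptor complex and coreceptors (red circles, named), 26 other signalling genes (blue triangles) and 22 NK cell markers (grey squares). Dashed lines mark 2-fold, and on the dotted line both lung populations are equal. Cd8b1 stands at -1.24 and 3.51, Cd2 alone of the named genes lies right of the dotted line, and most NK cell markers lie left of -1.

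Other surface molecules of T cells followed the receptor genes in part. Of 17 measured, 9 were past 2-fold higher in lung DC relative to PBMo with none lower, beside 4.02% and 1.09% of all genes. The list median was 1.08. In lung Mϕ relative to lung DC, 9 were lower with none higher, beside 4.52% and 2.74% of all genes. The largest in lung DC over PBMo were Ccr7, the receptor that leads T cells and mature dendritic cells to lymph nodes, at 4.35, Cxcr3, a receptor for interferon-induced chemokines on T and NK cells, at 2.18, and Cd7, a surface molecule of T and NK cells, at 2.10. Ccr7 had -3.91 in lung Mϕ over lung DC, Cd7 -3.79 and Cxcr3 -3.47. Of the 17, 2 were lower in lung Mϕ over PBMo, Cd7 at -1.69 and Cxcr3 at -1.29, beside 4.49% of all genes. Cd40lg, the CD40 ligand of activated helper T cells, had -0.03 in lung DC over PBMo.

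Many markers of NK cells and of dendritic cells were also past 2-fold in these comparisons. Most B cell genes lay within 2-fold in lung DC over PBMo, as most of all genes did, though 3 of 12 were higher. Of 22 measured NK cell markers, 10 were past 2-fold higher in lung DC relative to PBMo with none lower, beside 4.02% and 1.09% of all genes. Their median was 0.94. Klrd1, the CD94 chain of NK cell receptors, had 1.90, Il2rb, a receptor chain for IL-2 and IL-15, 1.70 and Tbx21, a regulator that NK cells and effector T cells share, 1.66. Of the 22, 18 were lower and 1, Sh2d1b1 at 1.21, was higher in lung Mϕ over lung DC, beside 4.52% and 2.74% of all genes. The median was -2.85, with Klra7, a receptor of the Ly49 family, at -5.25, Gzma, a granule protease, at -4.58 and Il2rb at -4.56. In lung Mϕ over PBMo 17 of the 22 were lower and 1, the adaptor Sh2d1b1 at 1.57, was higher, beside 4.49% and 5.47% of all genes. The median there was -1.91, and Klra7 had -3.95, Gzma -3.50 and Klra8 -3.26. The receptor genes had a median of -0.10 there and 1 of 9 lower. Of the NK cell markers, 3 are also on the lists of T cell signalling or transcription factors, namely Eomes, Tbx21 and Txk. Of 12 measured B cell genes, 3 were higher in lung DC relative to PBMo with none lower, beside 4.02% and 1.09% of all genes, and the median was -0.09. The 3 were Blnk, an adaptor of B cells and myeloid cells, at 3.23, Fcrla, an Fc receptor-like protein of B cells, at 1.43, and Spib, a transcription factor of B cells and plasmacytoid dendritic cells, at 1.25, whereas the B cell receptor subunit Cd79a had -0.13 and Cd79b -0.82. In lung Mϕ over lung DC 5 of the 12 were lower and none was higher, beside 4.52% and 2.74% of all genes. In lung Mϕ over PBMo 3 were lower, with Cd79b at -3.71, and 1 was higher, beside 4.49% and 5.47% of all genes.

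Among 17 markers of dendritic cells, 10 passed 2-fold upwards in lung DC over PBMo, beside 4.02% of all genes, with a median of 1.38. In lung Mϕ relative to lung DC, 13 were lower and 1, the endocytic receptor Ly75 at 1.74, higher, beside 4.52% and 2.74% of all genes. Cd83, a surface protein of mature dendritic cells, had 4.18 in lung DC over PBMo, the lectin Cd207 3.10 and Itgae, the αE integrin chain CD103 of dendritic cells and T cells in epithelia, 3.07. The plasmacytoid dendritic cell list had 9 genes, of which 6 were past 2-fold higher in lung DC relative to PBMo. The interferon regulator Irf7, at -1.25, was the 1 past 2-fold lower, where 4.02% of all genes were higher and 1.09% lower. The list median was 1.19, and Ccr9, a homing receptor that thymocytes also carry, had 2.50, Cox6a2 2.39 and Siglech 1.65. Side by side, the list medians in lung DC over PBMo were 3.16 for lung macrophages, 1.54 for the receptor complex and 1.38 for dendritic cells. They were 1.19 for plasmacytoid dendritic cells, 1.08 for T cell surface genes, 0.94 for NK cells and 0.68 for T cell transcription factors. Receptor chains with Trat1 had 0.14, signalling genes 0.10, variable segments 0.04, mast cells and basophils -0.08 and B cells -0.09. The platelet list had -1.06 and the blood monocyte list -2.31. The gates for lung cells used CD11c and autofluorescence and, as the methods describe them, no antibody against a lymphocyte antigen. Separate flow cytometry of the gated lung cells covered T cell, B cell and NK cell markers, which the study describes as not detected, and the purity of the sorted cells was checked by cytometry and on stained cytospins. The part of lymphocytes or of dendritic cells in the ratios of the receptor genes was not tested.

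**Figure D3:**
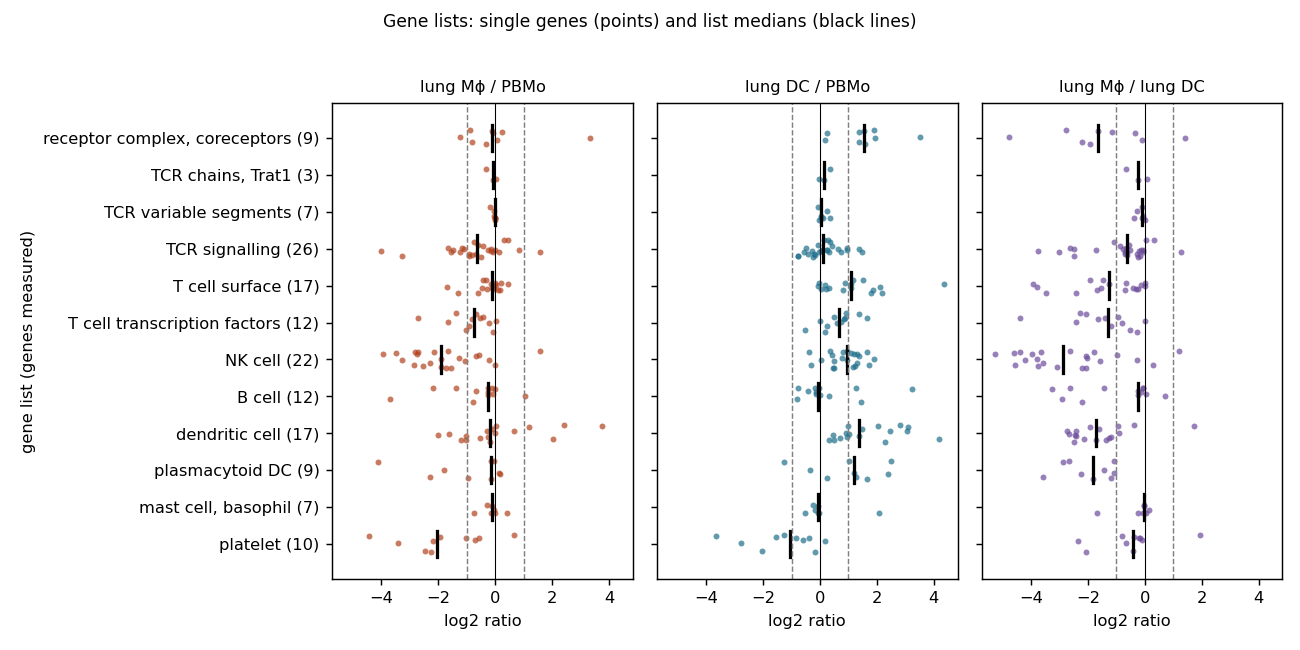
Log2 ratios (horizontal axes) of the single genes of 12 lists (points, with random vertical scatter) and the list medians (black lines) in lung Mϕ over PBMo, lung DC over PBMo and lung Mϕ over lung DC, with the number of genes measured in parentheses and dashed lines at 2-fold. In lung DC over PBMo the medians are 1.54 for the receptor complex and coreceptors, 1.38 for dendritic cells, 1.19 for plasmacytoid dendritic cells, 1.08 for T cell surface genes and 0.94 for NK cells, and in lung Mϕ over PBMo these are -0.10, -0.20, -0.16, -0.10 and -1.91. The lung macrophage and blood monocyte lists, with medians of 3.16 and -2.31 in lung DC over PBMo, are not drawn.

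The genes nearest to each member in the 3 ratios, by the Euclidean distance on the log2 scale over 3 values of which 2 are free, came from several cell types. Nearest to Cd3g were Cd86, a costimulatory ligand of antigen presenting cells, at a distance of 0.0754, Marcksl1 at 0.107 and Cxcr6, a chemokine receptor of T and NK cells, at 0.120. Nearest to Cd8a were the lectin Cd209d at 0.0433, Clec9a, a receptor for dead cells on the dendritic cells that cross-present, at 0.0893, and Cd34 at 0.0953. Cd3d stood farther from its neighbours, with Xcl1, a chemokine of NK and CD8 T cells, at 0.336, Epha2 at 0.377 and Cpne2 at 0.417. Cd8b1 had no close neighbour, and the nearest were Serpinb6b at 1.02, Ifng, the interferon-γ of NK and T cells, at 1.36, and the signalling adaptor Traf1 at 1.41. Nearest to Thy1 were Fcrla at 0.0707, Il21r, the IL-21 receptor, at 0.181, and Eomes, a transcription factor of NK and CD8 T cells, at 0.211. Nearest to Lat were Rasl11b at 0.0870, 8030431J09Rik at 0.113 and Cacna1s at 0.155. Nearest to Cd2 were Cdh1, the epithelial cadherin, at 0.192, the lysosomal protein Pld3 at 0.197, and Lzts2 at 0.261. A distance on 3 ratios is a description of these populations and holds nothing on shared control.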

How the data were processed

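The RNA had been amplified and hybridized to Agilent whole-genome mouse arrays. The authors scanned them with GenePix, weighted the spots and subtracted local background with the Edwards method and an added offset. They normalized each array by LOESS and fitted a limma model (version not given in the sources used here) over 12 hybridizations. The deposited log2 ratios are taken here to be contrasts of such a fit. They do not equal the coefficients that the study prints for Ccr7 and Cxcr3, though the directions are the same. The deposited ratios were used without further scaling. The offset pulls ratios of dim spots towards 0, and no intensities were analysed here. The table's 45220 rows do not follow the annotation's probe numbers. Of 32 interleaved orders, the 1 kept held a share of 0.907 of the variance between 5899 transcripts, against 0.413 in the next and 0.389 in row order. Chosen on every other transcript, it gave 0.919 on the 2949 left out. It was found after the values were seen. Of 33709 listed probes, 33653 had 1 symbol, and none of those with a gene number in the RefSeq table, 33517, had its symbol changed. A gene is the mean of its probes, and 10744 genes had 1.

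Members and lists were chosen with earlier results of these data known. Named are all members, up to 3 genes of each other list with the largest ratios past 2-fold in the comparison discussed, any receptor chain or signalling gene, the 3 genes nearest to each member past 2-fold, and the sort genes. Cd40lg, Cd79a, Cd79b, Sh2d1b1, Irf7, Ly75 and Trav14n-1 were added after their values were seen. Order recovery and gene means were checked on simulated data. Alternatives were other thresholds, other ways to merge probes and centred columns. Python 3.11.15, numpy 2.4.6, pandas 2.3.3 and matplotlib 3.10.9 were used.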

Additional observations from a re-analysis of the deposited data

Results flagged for a closer look

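Cd8b1 was the gene of the set whose lung populations lay past 2-fold on opposite sides of PBMo, at -1.24 in lung Mϕ and 3.51 in lung DC, which makes the ratio of lung Mϕ over lung DC -4.75. The difference was not tested, since each comparison has 1 value, and the gene has 1 probe.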

How the results depend on the processing

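At 4-fold in place of 2-fold, 1 gene was higher in lung DC relative to PBMo, 3 were lower and 0 higher in lung Mϕ relative to lung DC, and 0 were lower in lung Mϕ relative to PBMo, and at 1.5-fold 3 were lower in lung Mϕ relative to PBMo. Of all genes, 1.09%, 1.33%, 0.346% and 1.38% passed 4-fold in these same directions, and 8.48% were lower by 1.5-fold. With the probe of the largest ratio in place of the mean, 2 genes were lower in lung Mϕ relative to PBMo, Thy1 being the added one, and the medians were -0.30 in lung Mϕ over PBMo, 1.88 in lung DC over PBMo and -1.92 in lung Mϕ over lung DC. With RefSeq probes alone, the median in lung Mϕ over PBMo was -0.16. The mean in place of the median gave 0.0135 in lung Mϕ over PBMo and -1.50 in lung Mϕ over lung DC, so in lung Mϕ over PBMo its sign differs from that of the median. Leaving out each gene in turn, the medians ran from -0.22 to -0.10 in lung Mϕ over PBMo, from 1.46 to 1.56 in lung DC over PBMo and from -1.78 to -1.39 in lung Mϕ over lung DC. Centring the columns, or the median of the probes, changed 0 of 27 calls. The order of the spots gave a share of 0.831 between gene symbols. No paired analysis was possible because each comparison has 1 deposited column, and no replicate could be left out. The precision is set by the number of pools and arrays and could not be estimated, and how far spots stood above background was not analysed here.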

Other observations

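Most transcription factors of the T cell lineage were within 2-fold of PBMo in lung DC, as most of all genes were. Of 12 measured, 2 were higher in lung DC relative to PBMo with none lower, beside 4.02% and 1.09% of all genes. The list median was 0.68, beside 0.00269 over all genes, and the 2 were Tbx21 at 1.66 and Eomes at 1.39, which NK cells also use. Between the lung populations, 7 were lower and none was higher in lung Mϕ over lung DC, beside 4.52% and 2.74% of all genes. The median was -1.30, and the 7 included Tbx21 at -4.38, the chromatin organizer Satb1 at -2.41 and Ets1 at -2.28. Bcl11b, which commits thymocytes to the T cell fate, had 0.61 in lung DC over PBMo, Gata3, a factor of helper T cells and innate lymphoid cells, 0.87, and Foxp3, the factor of regulatory T cells, 0.01, and these 3 were chosen after their values were seen. In lung Mϕ over PBMo 4 were lower and none was higher, beside 4.49% and 5.47% of all genes, with a median of -0.74. The 4 were Tbx21 at -2.72, Satb1 at -1.66, Ets1 at -1.37 and Zbtb7b, which directs thymocytes to the CD4 lineage, at -1.03.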
